A study of Mus musculus with 3 samples.

Results

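The contractile and cytoskeletal genes of vascular smooth muscle described here are 44 genes of the 32285 listed in the files. They were measured in single cells from digested arteries of mice given sunitinib plus Yoda1, sunitinib alone or vehicle. The members were taken by name: 2 actins, 4 myosin chains, 5 regulators of the myosin switch, 12 thin filament proteins, 15 proteins of anchors and adhesions, 2 intermediate filament proteins, 2 transcriptional regulators and 2 others. Each group was 1 library of wild-type (WT) vascular tissue labelled 3 weeks, and dose, strain, age and the number of animals pooled are not given in the sources used here. Sunitinib, labelled as a tyrosine kinase inhibitor (TKI), is a small molecule that blocks receptors for vascular and platelet growth factors, and Yoda1 is an agonist of the stretch-gated channel PIEZO1. The label of the third library names Yoda1 only. Its place as sunitinib plus Yoda1 comes from the series design, where Yoda1 occurs in that combination only. Since each group is 1 library, differences between groups could not be set against any spread between replicates and were not tested. Every interval is a 95% interval for counting error only.

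Smooth muscle shortens when myosin pulls on actin filaments that are tied to dense bodies in the cell and to adhesion plaques at its surface. Phosphorylation of the myosin light chain by myosin light chain kinase starts the pull, and myosin phosphatase ends it. In arteries some of these genes mark the contractile state of the muscle cell, while others are also used in other cell types. Many of them are known targets of serum response factor (SRF) with its partner myocardin, which bind the promoter motif called the CArG box.

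The promoters of 4 members of different roles are shown because each holds that motif. Of the 44 members, 38 have a promoter in the RefSeq table used (build GRCm38.p6, 250 bases before to 50 after a start). A search for the strict CArG box CCWWWWWWGG (W is A or T), which reads alike on both strands, found it in 8 of the 38 (21.1%). Over all genes of the table it was in 488 of 27025 (1.81%), and by promoter it was in 9 of 45 member promoters (20%) and 535 of 32851 in all (1.63%). The 8 members are Srf, Myl9, Myl6, Cnn2, Vcl, Ldb3, Fermt2 and Myom1. Below are the 250 bases before the start, 5′ to 3′ on the gene's own strand, with the motif in capitals. The windows are chr17:46556163-46556412 on the minus strand for Srf, chr2:156775214-156775463 on the plus strand for Myl9, chr10:79988350-79988599 on the plus strand for Cnn2 and chr14:20929148-20929397 on the plus strand for Vcl.
Srf: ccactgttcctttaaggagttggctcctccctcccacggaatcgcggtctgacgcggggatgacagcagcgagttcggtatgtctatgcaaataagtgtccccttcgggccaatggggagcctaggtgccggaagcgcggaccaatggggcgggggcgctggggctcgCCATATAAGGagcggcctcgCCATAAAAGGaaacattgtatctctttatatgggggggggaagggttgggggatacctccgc
Myl9: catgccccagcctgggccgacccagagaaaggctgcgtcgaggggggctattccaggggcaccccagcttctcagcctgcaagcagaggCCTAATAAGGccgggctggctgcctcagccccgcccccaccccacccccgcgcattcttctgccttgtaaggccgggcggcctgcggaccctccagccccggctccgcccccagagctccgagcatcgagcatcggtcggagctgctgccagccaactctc
Cnn2: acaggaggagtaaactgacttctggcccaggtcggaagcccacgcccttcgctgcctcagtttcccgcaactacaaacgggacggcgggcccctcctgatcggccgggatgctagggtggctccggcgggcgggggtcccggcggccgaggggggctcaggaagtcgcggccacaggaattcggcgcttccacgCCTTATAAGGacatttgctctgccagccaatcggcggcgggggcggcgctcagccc
Vcl: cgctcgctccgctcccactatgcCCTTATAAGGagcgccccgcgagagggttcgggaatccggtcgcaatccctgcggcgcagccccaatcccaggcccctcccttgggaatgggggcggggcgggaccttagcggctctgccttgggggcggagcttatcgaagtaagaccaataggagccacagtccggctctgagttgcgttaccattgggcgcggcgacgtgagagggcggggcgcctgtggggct
Srf carries the motif at 82 and at 62 bases before its start, Cnn2 at 56, Myl9 at 161 and Vcl at 227. Acta2, Cnn1 and Des have promoters in the table without a strict match in this window. Near matches were not counted, and the Acta2 window holds ccctatatgg and ccttgtttgg, so it cannot be said to lack the motif in a looser form. Myh11, Tagln, Actg2, Csrp2, Myocd and Sh3bgr are not in the table. A match describes letters and not a bound site.

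Cells were kept with at least 500 UMIs (unique molecular identifiers, each marking 1 captured transcript), at least 300 genes and at most 15% mitochondrial UMIs. Smooth muscle cells were those in which Acta2, Tagln, Myh11 and Cnn1 together held at least 2% of UMIs. That rule gave 65 of 3130 kept cells in sunitinib plus Yoda1 (2.08%, exact Clopper-Pearson interval 1.61% to 2.64%), 3818 of 4148 in sunitinib (92.04%, 91.2% to 92.9%) and 3614 of 3947 in vehicle (91.6%, 90.7% to 92.4%). The muscle cells held 992683, 62862318 and 69271986 UMIs, with medians of 14074, 16281 and 16884 per cell and median mitochondrial shares of 6.55%, 6.95% and 6.36%. The cells nearest to the limit held 2.03%, 2.001% and 2.02% just inside it and 1.98%, 1.99% and 1.997% just outside. Of the muscle cell barcodes, 0 were shared between the library with Yoda1 and either other library, and 2 were shared between sunitinib and vehicle. The 65 cells carried transcripts of other cell types. Haemoglobin UMIs reached 7064 CPM (UMIs of a gene per 1000000 UMIs of the cells), against 1.37 CPM in sunitinib and 7.61 CPM in vehicle, and 90.8%, 2.12% and 13.1% of cells had at least 1. All 4 genes of that erythroid list were detected in each library. Fibroblast markers summed to 44.3, 5.87 and 14.3 CPM, immune markers to 48.4, 3.17 and 5.36 CPM and endothelial markers to 33.2, 31.7 and 33.8 CPM in sunitinib plus Yoda1, sunitinib and vehicle. In the 65 cells 3 of 5 endothelial, 4 of 5 fibroblast and 4 of 7 immune markers were detected. The others, Cdh5, Cldn5, Pi16, Cd3e, Cd68 and C1qa, were at 0. In that order of lists 5, 5 and 3 markers were detected in sunitinib and 5, 5 and 6 in vehicle. The 10 mural genes outside the members summed to 2302, 1054 and 1178 CPM, and pericyte markers, led by Rgs5, to 1129, 2173 and 2266 CPM. Striated muscle markers summed to 255 CPM in sunitinib plus Yoda1, against 33.3 CPM in sunitinib and 31.4 CPM in vehicle. In the 65 cells 7 of the 10 striated genes were detected, among them the cardiac genes Tnnt2, Tnni3 and Myl7, while Myh6, Myh7 and Myl2 were at 0. Actc1 had 115 CPM against 1.96 CPM in sunitinib. The part of these transcripts in the results below was not tested, except where cells with markers of other types were left out.

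Together the 44 genes held 8.37% of muscle cell UMIs in sunitinib plus Yoda1, 9.98% in sunitinib and 8.97% in vehicle. Per cell the share ran from 4.84% through a median of 8.04% to 15.1% in sunitinib plus Yoda1, from 4.22% through 9.90% to 18.0% in sunitinib and from 4.72% through 8.88% to 14.9% in vehicle. These ranges overlap, and the 4 genes that chose the cells make up 3.55%, 4.70% and 4.10% of all UMIs. The kit tags transcripts at the 3' end, so levels are not divided by gene length, and the order of genes is an order of captured tags.

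Acta2 and Tagln had the highest levels of the members in every library. Acta2 (smooth muscle alpha-actin, chr19:34241090-34255590) had 16932 CPM in sunitinib plus Yoda1, 25419 CPM in sunitinib and 21685 CPM in vehicle. Actg2, the gamma-actin best known from the gut, had 511, 426 and 380.2 CPM in that order of libraries. Tagln (transgelin or SM22, an actin-bundling protein) followed Acta2 with 11359, 15589 and 13809 CPM. Tpm2 (beta-tropomyosin, which lies along the actin filament) had 6255, 7108 and 5531 CPM. Dstn (destrin, which severs actin) had 3257, 4784 and 4539.7 CPM, and Cald1 (caldesmon, a brake on the filament) had 2829, 2463 and 2276 CPM. From CPM, Acta2 and Tagln were thus highest in sunitinib and lowest in sunitinib plus Yoda1, whereas Cald1 was highest in sunitinib plus Yoda1. That library was counted with another version of Cell Ranger, as described below. Relative to genes of like intron length, Cald1 had a log2 ratio of −0.75 in sunitinib plus Yoda1 against sunitinib.

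Among myosin chains the essential light chain Myl6 stood highest, with 7260.1 CPM in sunitinib plus Yoda1, 8736 CPM in sunitinib and 8159 CPM in vehicle. Myh11 (smooth muscle myosin heavy chain, chr16:14194535-14291372) had 5919 CPM in sunitinib plus Yoda1, 4402 CPM in sunitinib and 3855 CPM in vehicle. Myl9 (regulatory light chain) had 3480.5, 4050.2 and 3079 CPM, and Myh10 (non-muscle myosin IIB) had 270.0, 269 and 368 CPM. The switch genes were each below Myh11, Myl6 and Myl9 in every library. Mylk (myosin light chain kinase) had 1704 CPM in sunitinib plus Yoda1, 1129.5 CPM in sunitinib and 1009 CPM in vehicle, and Ppp1r14a (CPI-17, an inhibitor of myosin phosphatase) had 946, 1098 and 1077 CPM. Ppp1r12a, the targeting subunit of myosin phosphatase, had 1355, 919.96 and 975 CPM.

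Of the anchor genes, the LIM protein gene Csrp2 stood highest in sunitinib (3631 CPM) and vehicle (3810 CPM) but had 1675 CPM in sunitinib plus Yoda1, where Flna led. Flna (filamin A, a crosslinker of actin) had 2382 CPM in sunitinib plus Yoda1, 2230 CPM in sunitinib and 2174 CPM in vehicle. Itga8 (an integrin subunit of smooth muscle) had 1428, 1677 and 1596 CPM, and Actn1 (alpha-actinin) had 1107, 1418 and 1335 CPM. The intermediate filament genes were low: Des (desmin) had 377, 139 and 123 CPM, and Synm (synemin, its partner) had 144, 59.8 and 64.8 CPM. Myocd (myocardin) had 259, 145 and 189.8 CPM, and Srf was the lowest member in each library with 19.1, 16.5 and 20.6 CPM. Sh3bgr, which encodes a small SH3-binding protein, had 329, 567 and 496 CPM, and Myom1 (myomesin, known from the sarcomere's M-band) had 428, 344 and 292 CPM.

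Levels in endothelial cells give the background of free RNA and of genes used in both cell types. Endothelial cells were kept cells with at least 3 UMIs of the endothelial markers in which Acta2, Tagln, Myh11 and Cnn1 together held under 2% of UMIs. That choice caps the levels of these 4 genes in them, so their contrast with muscle is partly set by the choice. There were 757, 193 and 164 such cells in sunitinib plus Yoda1, sunitinib and vehicle, with medians of 5697, 7112 and 8588 UMIs. Acta2 had 67.8, 1449 and 1359.7 CPM in them and was seen in 7.001%, 90.7% and 82.3% of cells, so the presence of a UMI of Acta2 does not tell muscle from background in the sunitinib and vehicle libraries. Myh11 had 30.7, 130.0 and 311 CPM there. The 1766 lymphocytes of the library with Yoda1 (cells under the same 2% with a UMI of Cd79a or Cd3e) had 5.72 CPM of Acta2. For 3 members endothelial cells matched or exceeded muscle cells in sunitinib: Tpm4 had 363 CPM against 166 CPM in muscle, Zyx (zyxin, an adhesion protein) 874 CPM against 466 CPM, and Tagln2 516 CPM against 489.6 CPM. Tpm4 was also higher in endothelial cells in sunitinib plus Yoda1 and in vehicle, and Zyx in vehicle. Muscle cells had more Zyx in sunitinib plus Yoda1 (338 CPM against 88.9 CPM) and more Tagln2 in sunitinib plus Yoda1 (439 CPM against 255 CPM) and vehicle (636 CPM against 466 CPM). A UMI of Des was held by 43.1%, 23.3% and 22.9% of muscle cells, against 2.91%, 1.55% and 3.05% of endothelial cells, in sunitinib plus Yoda1, sunitinib and vehicle, although muscle cells were also the deeper ones.

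**Figure D1:**
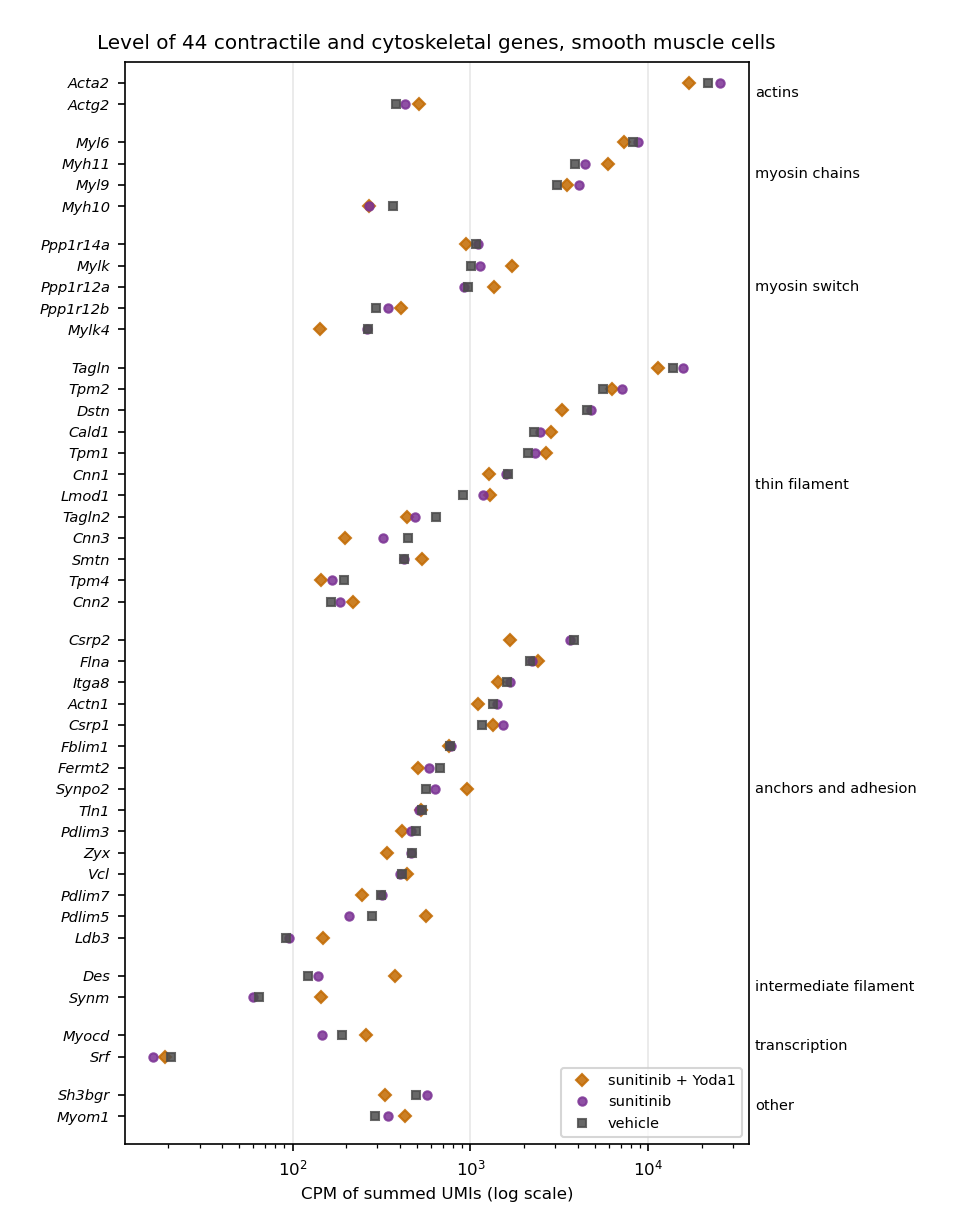
Level of each of the 44 members in smooth muscle cells, in CPM of summed UMIs on a log scale, grouped by role, with diamonds for sunitinib plus Yoda1 (65 cells), circles for sunitinib (3818 cells) and squares for vehicle (3614 cells); 1 library each, no error bar. Acta2 stands highest at 16932, 25419 and 21685 CPM and Srf lowest, and the diamonds lie apart from the other symbols most clearly for Des, Synm, Pdlim5 and Csrp2.

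The effect of the kinase inhibitor without Yoda1 is addressed by sunitinib against vehicle. The members stayed close to vehicle: their median log2 ratio was 0.04, against 0.09 over all 13961 genes with at least 20 UMIs in the pair, and 27 of the 44 lay above 0 and 17 below. A log2 ratio of at least 0.32 with an interval that leaves out 0 was reached upwards by 4 members, where 14.6% of all genes reached it, and downwards by 6, where 7.03% did. No member reached 1.5-fold, which 5.53% of genes reached upwards and 3.48% downwards. All 44 members had at least 20 UMIs.

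The 4 higher members belong to the filament and its anchors. Myl9 had 4050.2 CPM in sunitinib against 3079 CPM in vehicle, a log2 ratio of 0.40 (0.39 to 0.40). Csrp1, a LIM protein that binds alpha-actinin, had 1515 CPM against 1159 CPM, a log2 ratio of 0.39 (0.37 to 0.40). Tpm2 had 7108 CPM against 5531 CPM (log2 ratio 0.36, 0.36 to 0.37). Lmod1 (leiomodin, which starts actin filaments in smooth muscle) had 1174 CPM against 913 CPM (log2 ratio 0.36, 0.35 to 0.38). Next came Myom1 with a log2 ratio of 0.24 (0.21 to 0.26). The direction of these 5 ratios was kept in each of the 15 alternatives, with ranges of 0.20 to 0.47 for Myl9, 0.16 to 0.43 for Csrp1, 0.24 to 0.52 for Tpm2, 0.27 to 0.41 for Lmod1 and 0.04 to 0.26 for Myom1. Their size was not. Scaling by TMM factors lowered every log2 ratio by 0.09 and left 0 members at that size higher, where 9.62% of genes were, and 6 lower, where 10.2% were.

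The 6 lower members were a non-muscle myosin, a calponin, an anchor, a transgelin and both transcriptional regulators. Myh10 had 269 CPM in sunitinib against 368 CPM in vehicle (log2 ratio −0.45, −0.48 to −0.42). Cnn3, the calponin form also made outside muscle, had 324 CPM against 443 CPM (−0.45, −0.48 to −0.43). Pdlim5 (a PDZ and LIM domain protein of the Z line) had 208 CPM against 279 CPM (−0.42, −0.45 to −0.39). Tagln2, the transgelin also made outside muscle, had 489.6 CPM against 636 CPM (−0.38, −0.40 to −0.36). Myocd had 145 CPM against 189.8 CPM (−0.38, −0.42 to −0.34), and Srf had 16.5 CPM against 20.6 CPM (−0.33, −0.44 to −0.21). These log2 ratios stayed below 0 in each of the 15 alternatives, the nearest to 0 being −0.17 for Srf and −0.22 for Myocd.

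The genes most used to mark the contractile state were below the 0.32 size. The log2 ratio was 0.23 for Acta2 (0.23 to 0.23), 0.17 for Tagln (0.17 to 0.18), 0.19 for Myh11 (0.18 to 0.20) and −0.04 for Cnn1 (calponin, −0.05 to −0.02). These 4 chose the cells, and in cells chosen by 10 other mural genes their log2 ratios were 0.24, 0.18, 0.19 and −0.03. By role the median log2 ratio was 0.20 for the actins, 0.14 for the myosin chains, 0.03 for the switch genes, 0.09 for the thin filament, 0.01 for the anchors and −0.35 for the transcriptional regulators. With TMM factors each is lower by 0.09, which puts the switch genes and the anchors below 0.

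Other genes of the pathway came from lists and not from the members. At a log2 ratio of at least 0.32, 14.6% of all genes were higher with sunitinib and 7.03% lower. Of 16 genes listed as regulators of SRF or of contractile genes, 2 were higher at that size and 2 lower. Smad3, a mediator of TGF-beta signals, was the highest (6.43 CPM in sunitinib against 4.82 CPM in vehicle, log2 ratio 0.41, 0.20 to 0.63). Klf4, a repressor of contractile genes, was the lowest (399.9 CPM against 549 CPM, −0.46, −0.48 to −0.43). Of 17 dense plaque and adhesion genes, 1 was higher and 0 lower: Itga1 (225 CPM against 173 CPM, log2 ratio 0.38, 0.34 to 0.41). The lowest of them was Itga5 (log2 ratio −0.19, −0.22 to −0.15). Of 15 actin genes of all cells, 0 were higher and 1 lower, Tmsb10, a thymosin that binds free actin (85.1 CPM against 145 CPM, −0.77, −0.82 to −0.72), and the highest was Arpc1b (0.12, 0.10 to 0.15). Of the 10 striated muscle genes 7 had 20 UMIs, 2 were higher, led by Acta1 (0.93, 0.20 to 1.69), and 2 lower, led by Tnni3 (−1.05, −1.51 to −0.60), with Acta1 and Tnni3 at under 3 CPM in both libraries.

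Sunitinib plus Yoda1 against sunitinib sets the library with the PIEZO1 agonist beside the one with the inhibitor alone. It rests on the 65 muscle cells, counted with Cell Ranger 7.1.0, while version 6.0.0 was used for sunitinib and vehicle, per the file headers. Version 7 counts intronic reads unless told otherwise, and the sources used here do not give the setting. Over all 13111 genes the median log2 ratio was 0.30, and it was 0.03, 0.04, 0.15, 0.37 and 0.95 in 5 equal bins of genes from short to long total intron length. The cells sampled differ too: muscle was 2.08% of kept cells in sunitinib plus Yoda1 against 92.04% in sunitinib, with 1766 lymphocytes against 1. Version, the make-up of the cells and group cannot be told apart. Against the median of 0.30 over all genes the members' median was −0.02, with 22 above 0 and 22 below. Scaling by TMM factors shifts all ratios down by 0.24, so values with that scaling are given beside those from CPM for the members named.

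A size of at least 1.5-fold with an interval that leaves out 0 was reached upwards by 7 members, where 21.2% of all genes reached it, and downwards by 5, where 5.45% did. At a log2 ratio of 0.32 there were 10 higher members, where 23.5% of genes reached it, and 11 lower, where 9.11% did. With TMM factors the counts at 1.5-fold were 4 higher, where 15.8% of genes were, and 10 lower, where 11.9% were. Relative to genes of like intron length they were 2 higher (12.1% of genes) and 14 lower (12.3% of genes), and the members' median was −0.36.

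The higher members were led by the intermediate filament pair and by anchors. Des had 377 CPM in sunitinib plus Yoda1 against 139 CPM in sunitinib, a log2 ratio of 1.44 (1.28 to 1.59) from CPM and 1.20 with TMM factors. Synm had 144 CPM against 59.8 CPM, with log2 ratios of 1.27 (1.02 to 1.51) and 1.03. Pdlim5 had 566 CPM against 208 CPM, with log2 ratios of 1.44 (1.32 to 1.57) and 1.20. These 3 are not alike in gene structure: Des (chr1:75360329-75368579) has 4497 intron bases, Synm 21650 and Pdlim5 147230, and relative to genes of like intron length their log2 ratios were 1.40, 1.12 and 0.49. Des did not hold when cells with markers of other types were left out, which left 12 cells and a log2 ratio of −0.18, while Synm then had 0.98 and Pdlim5 1.31. A cell was left out at 2 or more such UMIs, and 73.8% of the 65 cells reached that with haemoglobin alone. The shares were 13.8% with endothelial, 4.62% with fibroblast and 4.62% with immune markers. The source of the Des UMIs was not tested. Myocd had 259 CPM against 145 CPM (log2 ratio 0.83, 0.65 to 1.01, 0.59 with TMM factors) but −0.12 relative to genes of like intron length. Ldb3, a Z line protein also called ZASP, had 149 CPM against 95.3 CPM (0.65, 0.40 to 0.88, 0.41 with TMM factors), but 0.28 relative to genes of like intron length, 0.26 in the 12 cells without markers of other types and −0.49 in the 9 cells with at most 5% mitochondrial UMIs. Mylk and Synpo2 (synaptopodin 2, an actin-bundling protein) each had 0.59 from CPM and 0.35 with TMM factors, and each had −0.36 relative to genes of like intron length.

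The lower members were a LIM protein, a kinase, a calponin, an SH3-binding protein and the smooth muscle actin. Csrp2 had 1675 CPM in sunitinib plus Yoda1 against 3631 CPM in sunitinib, a log2 ratio of −1.12 (−1.19 to −1.05) from CPM and −1.36 with TMM factors. Mylk4, a kinase related to Mylk, had 143 CPM against 262 CPM (−0.87, −1.12 to −0.64, −1.11 with TMM factors), but −0.22 in the 12 cells without markers of other types. Sh3bgr had 329 CPM against 567 CPM (−0.78, −0.95 to −0.63, −1.02 with TMM factors). Cnn3 had 197 CPM against 324 CPM (−0.71, −0.92 to −0.51, −0.95 with TMM factors), and Acta2 had 16932 CPM against 25419 CPM (−0.59, −0.61 to −0.56, −0.83 with TMM factors). Each of these 5 log2 ratios was below 0 in all 16 alternatives, from −2.47 to −1.06 for Csrp2 and from −1.11 to −0.11 for Acta2. Myh11, Acta2 and Tagln had log2 ratios of 0.43 (0.39 to 0.46), −0.59 and −0.46 from CPM and of 0.19, −0.83 and −0.70 with TMM factors. All 3 are among the genes that chose the cells, so their levels in these cells are tied to that choice. In cells chosen by other mural genes their log2 ratios from CPM were 0.23, −0.83 and −0.69. Relative to genes of like intron length the 3 were on the same side, at −0.52, −0.73 and −0.50.

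The 65 cells also differ from the others in some mural genes outside the members, named here after their values were seen. Notch3 had 158 CPM in sunitinib plus Yoda1 against 16.5 CPM in sunitinib, Pln (phospholamban) 127 CPM against 4.09 CPM and Sncg 301 CPM against 32.5 CPM, while Rgs5 had 736 CPM against 1750.1 CPM. In the rest of the mural list the log2 ratio was 1.52 for Gucy1a1, 1.03 for Pdgfrb, 0.71 for Mustn1, 0.37 for Aoc3 and −0.06 for Kcnmb1, while Nrip2 (46 UMIs against 3) and Higd1b (5 against 3) had few UMIs. The other 3 pericyte genes had −0.05 (Kcnj8), −0.05 (Abcc9) and −0.14 (Cspg4). The part of these differences in the members' ratios was not tested. The values of genes in the other lists are from CPM. Of the 16 regulators of SRF or of contractile genes, 6 were at least 1.5-fold higher and 2 lower. They ran from Prkg1 (cGMP-dependent kinase, 983 CPM against 71.5 CPM, log2 ratio 3.78, 3.68 to 3.88, with 1189680 intron bases) to Klf4 (126 CPM against 399.9 CPM, −1.67, −1.93 to −1.41, with 2275 intron bases). Of 17 plaque genes 4 were higher and 0 lower, and the lowest log2 ratio was that of Sorbs3 (−0.42, −1.38 to 0.39, on 12 UMIs). Of 15 actin genes of all cells 2 were higher and 2 lower, from Myh9 (1.08, 0.84 to 1.30) to Myl12a (−0.92, −1.13 to −0.72). Of 6 striated muscle genes with 20 UMIs 5 were higher and 0 lower, from Actc1 (5.88, 5.49 to 6.25) to Ckm (−0.25, −1.47 to 0.74). With TMM factors the regulator genes had 6 higher and 4 lower, the plaque genes 2 and 1, the actin genes of all cells 1 and 6 and the striated muscle genes 5 and 0. Relative to genes of like intron length the 4 lists had 3 and 5, 1 and 5, 1 and 6, and 5 and 0. Over all genes 21.2% were higher and 5.45% lower at that size from CPM. The shares were 15.8% and 11.9% with TMM factors and 12.1% and 12.3% relative to genes of like intron length.

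**Figure D2:**
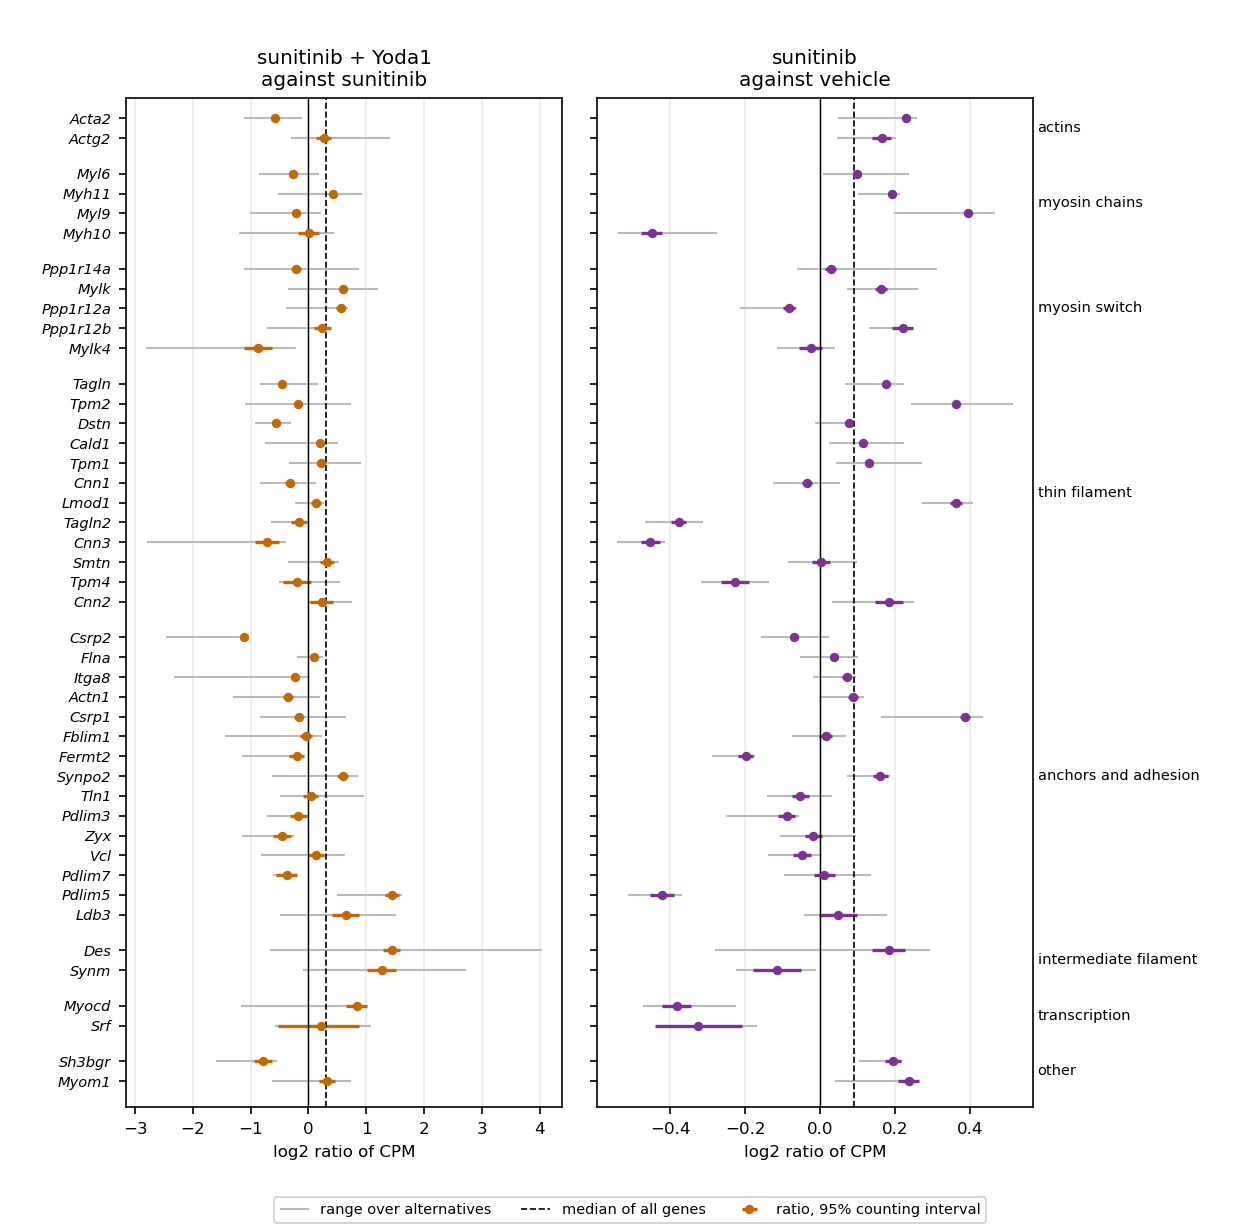
Log2 ratio of CPM for each of the 44 members, sunitinib plus Yoda1 against sunitinib on the left and sunitinib against vehicle on the right, with different axis ranges. Points carry the 95% counting interval, grey bars run from the lowest to the highest value over the alternatives and the dashed line is the median of all genes (0.30 left, 0.09 right). On the left the grey bars cross 0 for Des (−0.66 to 4.05) and stay below it for Csrp2 (−2.47 to −1.06).

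Cell-to-cell spread was measured on cells thinned to 5000 UMIs each (62, 3506 and 3559 cells; 3, 312 and 55 shallower cells were left out) as the coefficient of variation (CV) that remains after Poisson counting noise. It could be given for 43 members, since Srf had under 0.2 UMIs per thinned cell. The median CV was 0.46 in sunitinib plus Yoda1, 0.33 in sunitinib and 0.33 in vehicle, against 0.41, 0.28 and 0.28 for genes of like mean. In sunitinib and in vehicle alike 34 of the 43 lay above the median of genes of like mean, and 26 did in sunitinib plus Yoda1, where 62 cells give a coarse value.

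Des was the most uneven member in sunitinib and vehicle, and Mylk4 in sunitinib plus Yoda1. The CV of Des was 2.07 in sunitinib plus Yoda1, 2.71 in sunitinib and 2.92 in vehicle, against 0.29 and 0.30 for genes of like mean in sunitinib and vehicle. The 5% of cells with most Des held 50.9%, 59.0% and 63.0% of its UMIs, and 72.6%, 82.5% and 83.6% of thinned cells had none. In sunitinib and vehicle it was followed by Actg2 (CV 0.994, 1.009 and 1.009 in the 3 libraries), Synm (1.26, 0.95 and 0.87) and Mylk4 (2.13, 0.78 and 0.75). The order differed in sunitinib plus Yoda1, where Myocd (1.19) also stood above Actg2. Among the 4 lowest in both sunitinib and vehicle were Dstn (0.19 in sunitinib and 0.20 in vehicle), Myl6 (0.23 and 0.19) and Fermt2 (kindlin-2, an activator of integrins; 0.20 and 0.24). In sunitinib plus Yoda1 Zyx, Fermt2 and Pdlim7 had no variance beyond counting noise (CV 0). Acta2, at 127 UMIs per thinned cell in sunitinib and 109 in vehicle, had a CV of 0.30 in each. Des, Actg2, Synm and Mylk4 were the 4 highest, in that order, in sunitinib and in vehicle.

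**Figure D3:**
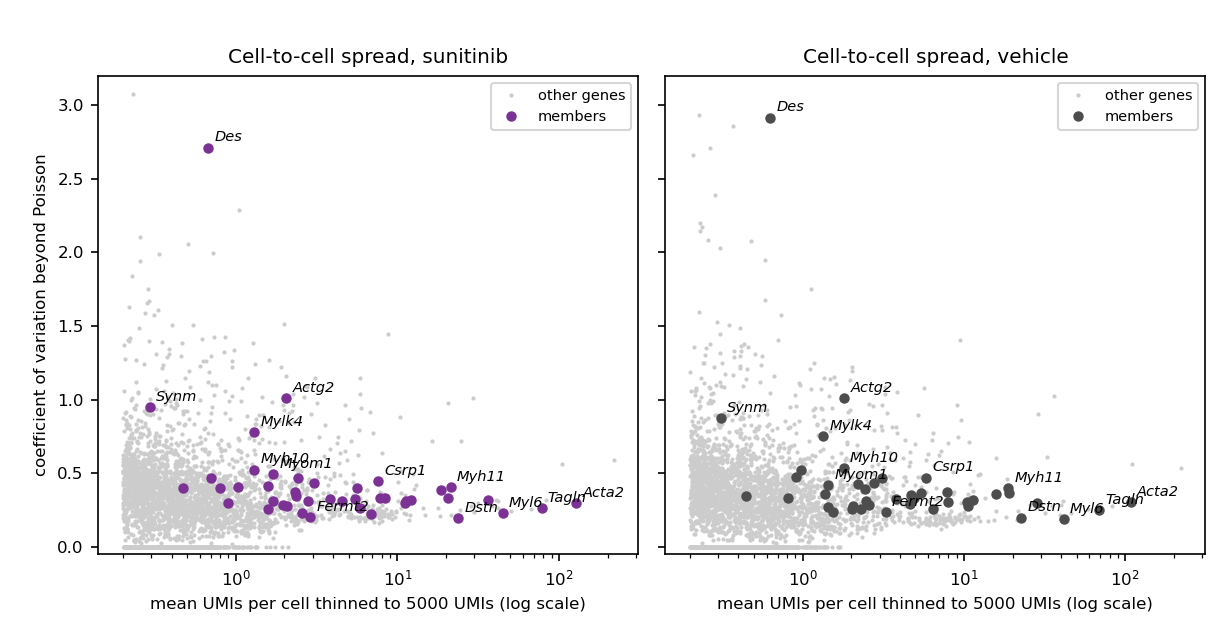
CV beyond Poisson against mean UMIs per cell (log axis) for sunitinib (left, 3506 cells) and vehicle (right, 3559 cells), each cell thinned to 5000 UMIs; coloured points are the members and grey points all other genes with a mean of 0.2 or more. Des stands at 2.71 and 2.92, far above the other members, of which Actg2 is next at 1.009 in each.

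Some of the uneven members differed between cells with and without posterior Hox UMIs. Posterior Hox genes (13 genes whose expression is set by position in the embryo) had at least 1 UMI in 50.8% of sunitinib plus Yoda1, 63.0% of sunitinib and 60.8% of vehicle muscle cells, with median depths of 14100, 16897 and 17163 UMIs in cells with them and 13292, 14821 and 16585 UMIs in cells without. Des was higher in cells with Hox UMIs: 479, 149 and 138 CPM against 263, 117 and 96.5 CPM in cells without, which gives log2 ratios of 0.86 (0.55 to 1.18), 0.35 (0.29 to 0.42) and 0.51 (0.45 to 0.58). Synm had log2 ratios of 1.48 (0.91 to 2.07), 0.28 (0.17 to 0.38) and 0.30 (0.21 to 0.39). Actg2 was lower in cells with Hox UMIs in sunitinib (−0.35, −0.39 to −0.31) and vehicle (−0.36, −0.40 to −0.33), but had −0.03 (−0.29 to 0.23) in sunitinib plus Yoda1. Tagln2 had −0.30 and −0.22 and Tpm4 −0.24 and −0.26 in sunitinib and vehicle. Acta2 had 0.02 and 0.07 and Myh11 −0.04 and −0.02. The part of the difference in depth in these ratios was not tested.

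**Figure D4:**
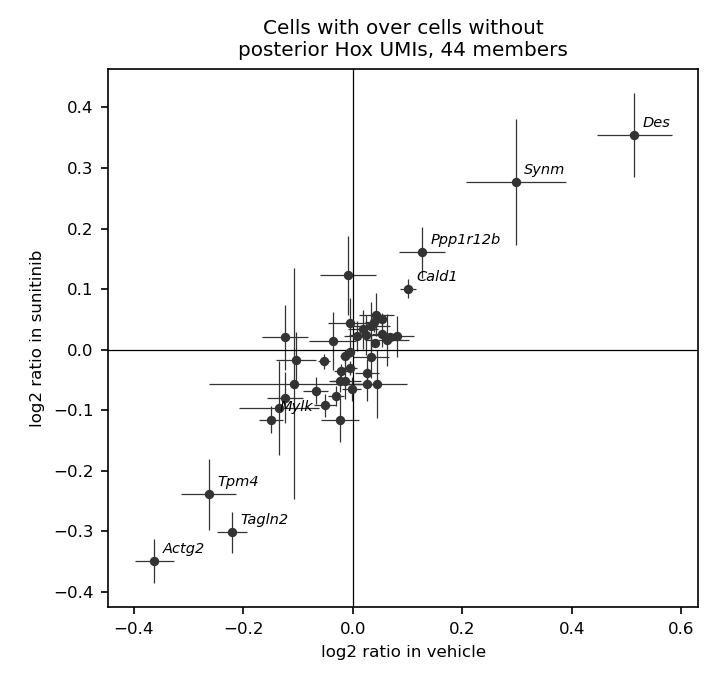
Log2 ratio of CPM in cells with over cells without posterior Hox UMIs for the 44 members, vehicle on the horizontal and sunitinib on the vertical axis, with 95% counting intervals. Des (0.35 in sunitinib, 0.51 in vehicle) and Synm lie at the upper right, Actg2, Tagln2 and Tpm4 at the lower left and most members near 0.

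Members did not vary across cells as a single block. Over the 903 pairs of the 43 members the median Pearson r of log(1 + count) was 0.04 in sunitinib plus Yoda1, 0.03 in sunitinib and 0.04 in vehicle, and a member with a non-member gene of like level had a median within 0.01 of 0 in each library. An r of at least 0.2 was seen for 43 pairs in sunitinib and 37 in vehicle, and 34 of these pairs were the same. The values of r in sunitinib and in vehicle correlated at 0.942 over the 903 pairs, which share the same genes and levels. In sunitinib 393 pairs had the higher r.

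In the cells chosen by the 4 contractile genes the 34 pairs form chains that do not touch. A chain of 9 genes with 22 pairs joins Acta2, Tagln, Tpm2, Myl6, Myl9, Ppp1r14a, Csrp1, Csrp2 and Dstn. Its closest pairs were Acta2 with Tpm2 (r 0.56 in sunitinib, 0.50 in vehicle), Acta2 with Tagln (0.55 and 0.49), Myl6 with Tpm2 (0.55 and 0.48) and Acta2 with Myl6 (0.48 and 0.47). A chain of 10 genes with 12 pairs joins Myh11, Flna, Cald1, Mylk, Tpm1, Itga8, Synpo2, Ppp1r12a, Actn1 and Cnn1. Here Myh11 was the hub with 8 partners, among them Flna (0.42 and 0.37), Cald1 (0.38 and 0.31), Mylk (0.34 and 0.29), Tpm1 (0.30 and 0.33) and Itga8 (0.32 and 0.27). The r of Acta2 with Myh11 was −0.02 in sunitinib and 0.04 in vehicle. Both genes are among the 4 that chose the cells, and in cells chosen by the 10 mural genes outside the members (3360 and 3533 cells, a choice made once results were known) it was 0.09 and 0.17 and the chains joined into 1.

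Across the chains the 90 pairs had a median r of −0.02 in sunitinib and −0.003 in vehicle, from −0.21 to 0.21 and from −0.17 to 0.17. The lowest of them was Tagln with Itga8 (−0.21 and −0.17), and Acta2 with Cald1 had −0.14 and −0.15. Myh10, the non-muscle myosin, had its lowest values with Myl6 (−0.19 and −0.21) and Tpm2 (−0.19 and −0.18). Des and Synm, outside the chains, had an r of 0.14 with each other in each library.

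The chains differ in gene structure: median total intron length was 6146 bases in the Acta2 chain (99 to 30216) and 101751 bases in the Myh11 chain (7679 to 245948). The r with the mitochondrial share of the cell was −0.14 and −0.09 for Acta2, −0.19 and −0.13 for Tagln, 0.04 and −0.01 for Myh11 and 0.13 and 0.06 for Itga8 in sunitinib and vehicle. The part of intron length or cell quality in the chains was not tested. When cells were thinned to 10000 UMIs, all 34 pairs stayed at 0.2 or more and the chains stayed apart, but 68 pairs reached 0.2 in both libraries. The number of pairs at that cutoff thus differed with depth. In cells chosen by the 10 other mural genes all 34 pairs stayed too, but 49 pairs reached 0.2. The chains were joined in those cells, although Acta2 with Myh11 stayed below 0.2 in both libraries (0.09 in sunitinib and 0.17 in vehicle). That choice also changes which cells enter, and the reason for the joining was not tested. In cells with a share of 5% or more 16 of the 34 pairs stayed and Acta2 with Myh11 had −0.25 and −0.16. In the 62 cells of sunitinib plus Yoda1 r ran from −0.51 to 0.65 over the pairs, Acta2 with Tpm2 had 0.59 and Myh11 with Flna 0.51.

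**Figure D5:**
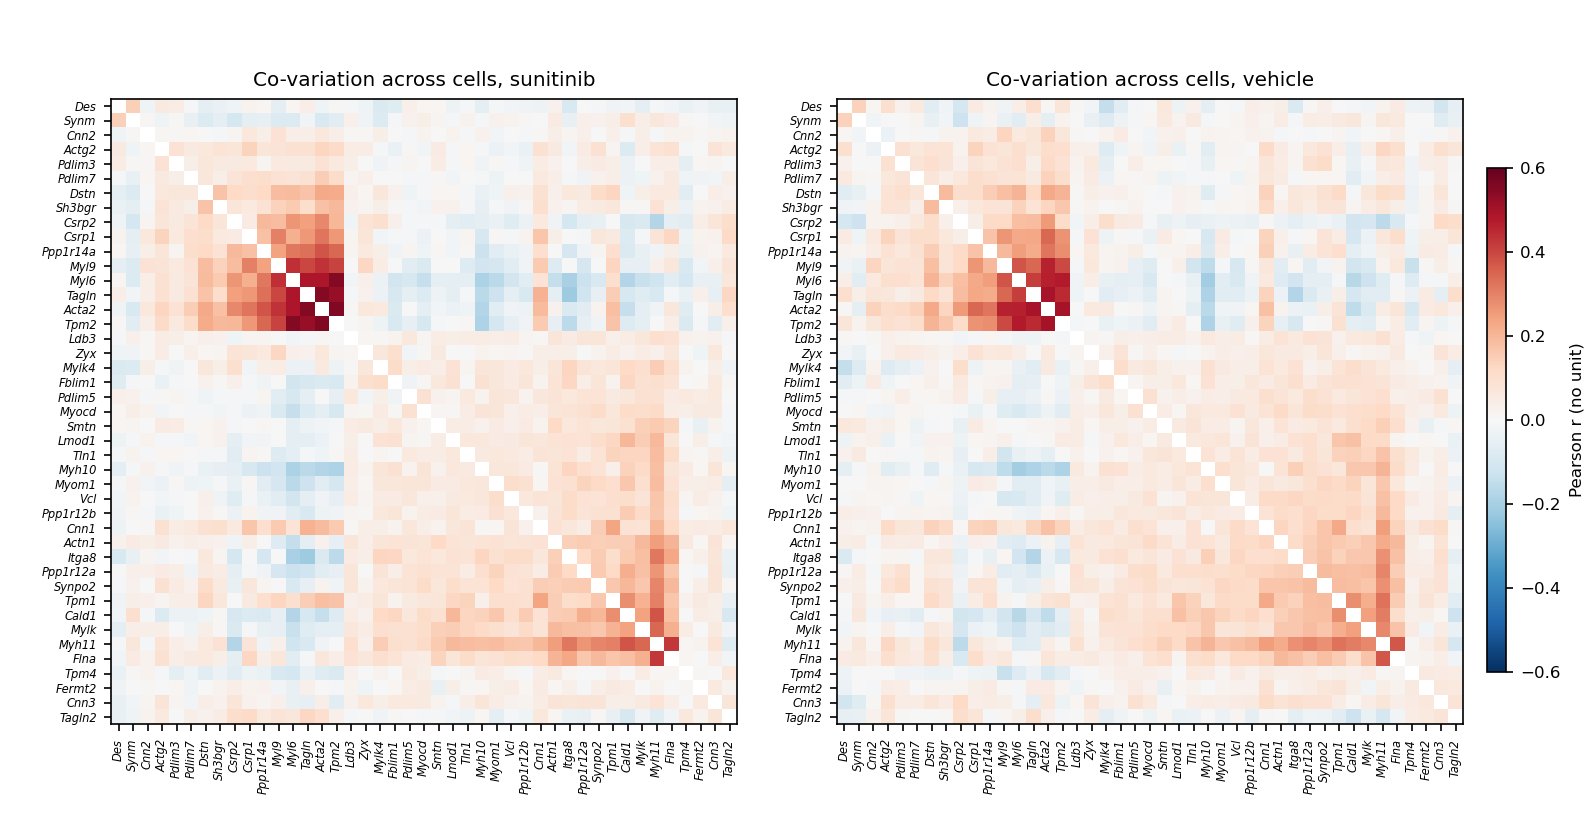
Pearson r across smooth muscle cells between 43 members in sunitinib (left, 3506 cells) and vehicle (right, 3559 cells), each cell thinned to 5000 UMIs, genes in the same order in both panels (average linkage on the mean r) and the diagonal blank. The dark block holds Acta2, Tpm2, Tagln, Myl6 and Myl9, with r of 0.40 to 0.56 in sunitinib, and the paler block at lower right holds the partners of Myh11, with values near 0 or below between the blocks.

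Annotated genes on the other strand overlap exons of several members: Tagln with Pcsk7, Vcl with Ap3m1, Tln1 with Creb3, Zyx with Epha1, Synm with Ttc23 and Myom1 with Myl12a. Acta2 and Actg2 also encode near-identical proteins, and how alike the tagged ends of their transcripts are was not examined. Use of strand and the treatment of shared reads in counting are not given in the sources used here, so part of the UMIs of these members may belong to their neighbours or copies.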

How the data were processed

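The authors deposited raw UMI counts by gene and cell, 1 matrix a library, made with Cell Ranger 7.1.0 for sunitinib plus Yoda1 and 6.0.0 for sunitinib and vehicle, per the file headers. The submitters' processing notes name mm10 and Seurat. The members and gene lists were chosen with earlier results of these data known. Cells were filtered and chosen as the report states, and doublets were not removed, but cells with 2 or more UMIs of other types' markers were left out as an alternative. Counts were summed per library and divided by all UMIs to give CPM, and ratios with at least 20 UMIs carry exact conditional Clopper-Pearson intervals. UMIs were not pooled over groups. Named in full were 1 to 4 leading members of each role by level, the 5 highest and 5 lowest by ratio, the highest and lowest of the other lists, and others singled out after their values were seen. The highest plaque gene for sunitinib plus Yoda1 against sunitinib is not reported here. Scaling, denominator, cell choice, mitochondrial limit, depth, Hox cells and intron length (GENCODE vM21) were varied. Python 3.11.15, numpy 2.4.6, scipy 1.17.1, pandas 2.3.3, matplotlib 3.10.9 and R 4.3.3 with edgeR 4.0.16 and DESeq2 1.42.0 (scaling factors only) were used, and the ratio and spread calculations were checked on simulated data.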

Additional observations from a re-analysis of the deposited data

How the results depend on the processing

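The members' median log2 ratio for sunitinib against vehicle, 0.04, was −0.045 with TMM factors, −0.048 with median-of-ratios factors, 0.058 without member UMIs in the total, 0.053 without mitochondrial UMIs, 0.017 in cells with a 5% share, 0.046 in cells chosen by other mural genes, 0.035 and 0.082 at mitochondrial limits of 10% and 5%, 0.046 without cells with other types' markers, 0.070 in cells without Hox UMIs, 0.068 after thinning and 0.070 as a mean over cells. The 4 members that were higher by a log2 ratio of at least 0.32 became 0 with TMM, 0 with median-of-ratios factors and 1 with the 5% share. None of the 10 members at that size turned round under the 15 alternatives, while Des, at 0.18, had −0.28 with the 5% share.

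For sunitinib plus Yoda1 against sunitinib the median, −0.02, was −0.26 with TMM and with median-of-ratios factors, −0.043 without member UMIs, −0.029 with a 1% share, 0.17 with a 5% share, −0.065 in cells chosen by other mural genes, 0.018 and −0.35 at mitochondrial limits of 10% and 5%, −0.20 without cells with other types' markers, 0.047 and −0.044 in cells with and without Hox UMIs, −0.051 after thinning, −0.025 as a mean over cells and −0.36 relative to genes of like intron length. The 7 members higher by 1.5-fold became 4 with either set of factors, 15 with the 5% share, 4 in cells chosen by other mural genes, 2 at the 5% mitochondrial limit, 4 without other types' markers and 2 relative to like intron length. The 5 lower ones became 10 with either set of factors, 10 with the 5% share, 8 in cells chosen by other mural genes, 15 at the 5% mitochondrial limit and 14 relative to like intron length. Among the 12 members called at 1.5-fold, signs turned round for Synpo2 (−0.62) and Myocd (−1.18) with the 5% share. At the 5% mitochondrial limit they did for Mylk (−0.26), Ldb3 (−0.49), Des (−0.66) and Synm (−0.090), and without other types' markers for Des (−0.18). Relative to like intron length they did for Mylk (−0.36), Synpo2 (−0.36) and Myocd (−0.12), while Myh11 (−0.52), Ppp1r12a (−0.39) and others below that size also turned. The cause of these changes was not tested.

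The median CV in sunitinib plus Yoda1 was 0.51 at 10000 UMIs and 0.38 without other types' markers, in sunitinib 0.32, 0.34 and, with a 5% share, 0.31, and in vehicle 0.34 with a 5% share. The median r was 0.061 and 0.074 in sunitinib plus Yoda1, 0.049 at 10000 UMIs, 0.021 with a 5% share and 0.036 in cells chosen by other mural genes in sunitinib, and 0.027 with a 5% share in vehicle. With 1 library per group and 65 muscle cells in sunitinib plus Yoda1, counting intervals understate the error, and no paired analysis was possible because no group has a replicate.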
